A study of Zea mays with 18 samples.

Results

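Lipoxygenases and OPDA reductases are enzymes at the start and near the end of jasmonate synthesis, and 10 of their genes were followed in leaves of the maize hybrid An'nong 591 after heat. The genes were taken by gene ID from the 39471 genes of the deposited table. They are the 8 lipoxygenase genes lox1, lox3, lox4, lox5, lox6, lox8, lox9 and lox10, and the 2 OPDA reductase genes opr7 and opr8. All 10 were in the table. RNA came from seedling leaves, and by the study's methods heat began once the third leaf had fully expanded. The heat-treated seedlings (F1) were held at 42 °C by day and 35 °C by night for 2 days, and the control seedlings (CF1) at 28 °C and 23 °C, all of the same hybrid, the cross of the inbred lines CB25 and CM1, under 16 h of light and 8 h of dark. Each group had 3 biological replicates. Whether a replicate was 1 plant or a pool of plants is not given in the sources used here, so p-values measure the spread between these samples. The hybrid accounted for 6 of the 18 libraries of the series, and the libraries of the parental lines were not analysed here.

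Lipoxygenases add oxygen to the polyunsaturated fatty acids linoleic and linolenic acid. Those that act at carbon 13 work in the plastid and feed both jasmonate and the green leaf volatiles, the smell of cut grass. Those that act at carbon 9 feed a separate set of oxylipins, which in maize are known mainly from interactions with fungi, nematodes and insects. On the jasmonate branch, allene oxide synthase and allene oxide cyclase turn the 13-hydroperoxide of linolenic acid into OPDA in the plastid, and OPDA reductase in the peroxisome begins its conversion to jasmonic acid. Jasmonate responses are held back by JAZ repressors, which belong to the TIFY family.

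The libraries held between 12266758 and 14643512 counts on genes. A gene was tested if its mean FPKM (fragments scaled by exon length and library total) was at least 1 in F1 or in CF1, which 20622 genes met. It was called up-regulated or down-regulated if it changed 2-fold or more with an FDR no higher than 0.05 in edgeR's quasi-likelihood test with Benjamini-Hochberg adjustment over all genes tested. Libraries were scaled by TMM, which allows for a few genes that take many of the counts. The 100 genes with the most counts took 14.7% to 15.9% of the counts in F1 libraries and 36.6% to 39.3% in CF1 libraries, and the median log2 fold change of all genes tested was 0.05 with TMM against 0.85 with library totals alone. TMM factors lay between 1.30 and 1.33 in F1 and between 0.734 and 0.77 in CF1. FPKM values below are as deposited, so without the TMM factors, and log2 fold changes are F1 over CF1 with TMM unless another scale is named. Leaf markers were present in both groups, while 3 of 4 endosperm genes and the embryo gene ole1 were at 0 in every library. Summed FPKM of the mesophyll markers (mdh6, pep1 and ppdk1) was 4963 to 5907 in F1 and 16243 to 18504 in CF1, and that of the bundle sheath markers (me3 and ssu1) was 2117 to 2824 in F1 and 6110 to 6885 in CF1. The antenna genes cab-m1 and lhcb7 summed to 1015 to 1247 FPKM in F1 and 13121 to 19114 FPKM in CF1, and the epidermal wax genes gl1 and gl15 to 13.21 to 15.53 FPKM in F1 and 31.15 to 48.11 FPKM in CF1. Fewer cells of a type and less RNA per cell cannot be told apart in such leaf RNA, and the part of these shifts in the results on jasmonate genes was not tested.

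All 10 genes were tested. Of them 2 were up-regulated (lox1 and lox3), 4 were down-regulated (lox4, lox8, opr7 and opr8) and 4 were not called (lox5, lox6, lox9 and lox10). Among all genes tested, 44% were called, 24.1% up and 19.9% down, so 6 of 10 members called is not far from the background. The 4 genes without a call had an adjusted p below the threshold and a fold change under 2. The median log2 fold change over the 10 genes was -0.75, against 0.05 over all genes tested. With library totals as the only scaling, 4 members were up-regulated (lox1, lox3, lox5 and lox9) and 2 down-regulated (lox4 and lox8), while 45% of all genes tested were called up and 9.21% down with that scaling. The median was then 0.05 over the members against 0.85 over all genes. The F1 and CF1 libraries of each member did not overlap on the TMM-scaled FPKM, which also held for 75.2% of all genes tested, while lox6 and lox10 overlapped in the deposited FPKM. The low-value filter was passed by lox1 and lox3 only through F1 and by lox4 only through CF1, so these genes had to differ in order to be tested at a mean this low.

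**Figure D1:**
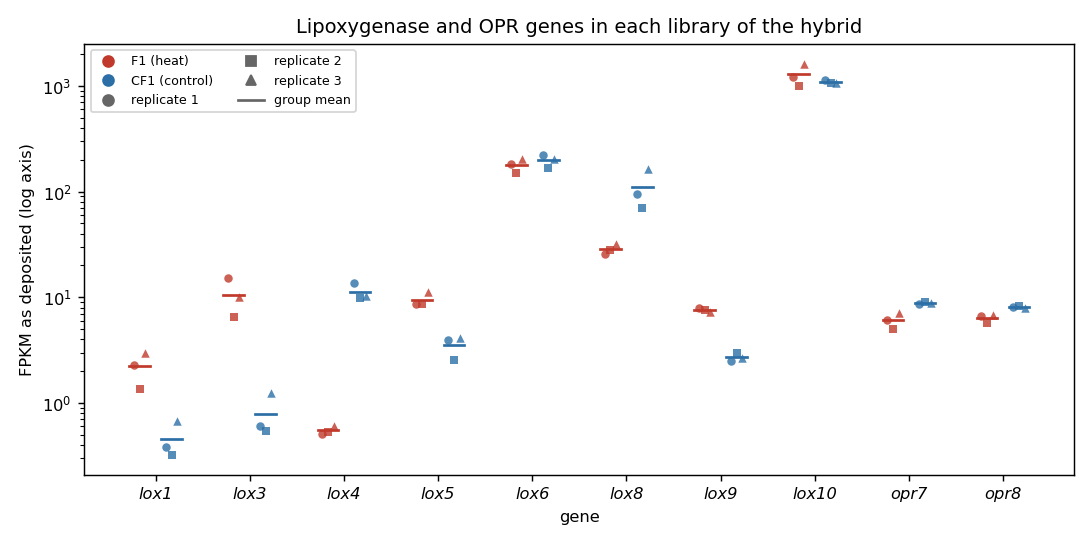
Deposited FPKM (log axis) of the 10 lipoxygenase and OPDA reductase genes in each library, with F1 (heat) left of CF1 (control) for each gene; markers are libraries, shaped by replicate, and lines are group means. The genes span a wide range of levels, with lox10 at 995.58 to 1631.4 FPKM in F1 and 1061.47 to 1142.76 in CF1, and lox3 and lox4 trade places between the groups.

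Among the genes whose enzymes act at carbon 9, lox3 and lox4 moved in opposite directions. Both encode lipoxygenases of this kind, lox3 being the gene whose mutants are known for altered resistance to fungi and nematodes. In the RefSeq annotation of Zm-B73-REFERENCE-NAM-5.0 they lie on the same chromosome with 0 annotated genes between them. The gene lox3 (GRMZM2G109130) had 15.16, 6.51 and 9.96 FPKM in F1 libraries 1 to 3, against 0.60, 0.54 and 1.24 FPKM in CF1 libraries 1 to 3. Behind these values were 651, 281 and 421 counts in F1 and 25, 21 and 45 counts in CF1. Every F1 library was well above every CF1 library, although the F1 libraries themselves differed by more than 2-fold. The means were 10.5 ± 4.35 FPKM in F1 and 0.793 ± 0.388 FPKM in CF1 (SD, n = 3 each), and lox3 was up-regulated 7.71-fold (log2 fold change 2.95, SE 0.38, adjusted p = 6.71e-05 by edgeR's quasi-likelihood test). The gene lox4 (GRMZM2G109056) had 0.51, 0.53 and 0.61 FPKM in F1, against 13.73, 9.78 and 10.38 FPKM in CF1. These values rested on 23, 24 and 27 counts in F1 and on 601, 397 and 391 counts in CF1. It was the member with the largest fold change in either direction, down-regulated 35.3-fold (log2 fold change -5.14, SE 0.19, adjusted p = 2.78e-08 by edgeR's quasi-likelihood test), with means of 0.55 ± 0.0529 FPKM in F1 and 11.3 ± 2.13 FPKM in CF1.

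Ratios within a library depend on scaling only through the 0.1 FPKM added to each gene. With it, lox3 stood above lox4 in F1 by 25-, 10.5- and 14.2-fold, and lox4 stood above lox3 in CF1 by 19.8-, 15.4- and 7.82-fold. The log2 ratio of lox3 to lox4 was 3.95 ± 0.637 in F1 and -3.74 ± 0.692 in CF1 (SD, n = 3 each), a difference of 7.69 or 207-fold in the ratio. The exact two-sided permutation test gave p = 0.1, the smallest value that 3 libraries against 3 allow. The ratio used 0.1 FPKM as pseudocount, and with 1 FPKM the difference was 5.61. The 2 genes are similar copies, and reads that fit both could be lost or misplaced in counting, which was not tested.

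The other genes of this class changed less. The gene lox5 (GRMZM2G102760), a lipoxygenase known from insect defence, had 8.55, 8.73 and 11.14 FPKM in F1, against 3.96, 2.56 and 4.12 FPKM in CF1. Its log2 fold change was 0.62 (SE 0.20, adjusted p = 0.0165 by edgeR's quasi-likelihood test), short of 2-fold, and with library totals it was 1.42 and called. The gene lox1 (GRMZM2G156861), whose enzyme can make both kinds of product, was low throughout, with 2.31, 1.36 and 2.99 FPKM in F1 and 0.38, 0.32 and 0.67 FPKM in CF1. It was up-regulated 2.78-fold (log2 fold change 1.48, SE 0.36, adjusted p = 0.00398 by edgeR's quasi-likelihood test). Its counts were 196, 116 and 250 in F1 and 32, 25 and 48 in CF1. Its neighbour on the chromosome in the RefSeq annotation is lox2, again with 0 genes between them. The name lox2 matched no ID of the table, and how reads of lox2 were counted was not tested. The deposited exonic length of lox1 was 5838 bases, against 2949 to 3548 bases for the other lipoxygenase members. Whether the ID of lox1 also covers lox2 was not tested, so its values may not be those of lox1 alone. The call of lox1 was lost with limma on log2(TMM-scaled FPKM + 1), where the change was 0.73, a scale that understates changes at such levels. The summed deposited FPKM of lox1, lox3, lox4 and lox5 was 22.8 ± 4.98 in F1 and 16.1 ± 2.75 in CF1 (SD, n = 3 each), and the ranges overlapped. Their mean TMM-scaled FPKM, in the same order, was 1.69, 7.99, 0.417 and 7.19 in F1. In CF1 it was 0.607, 1.06, 14.9 and 4.7, so the direction of the sum turned with the scaling. In F1 this sum was mostly lox3 and lox5, and in CF1 mostly lox4.

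**Figure D2:**
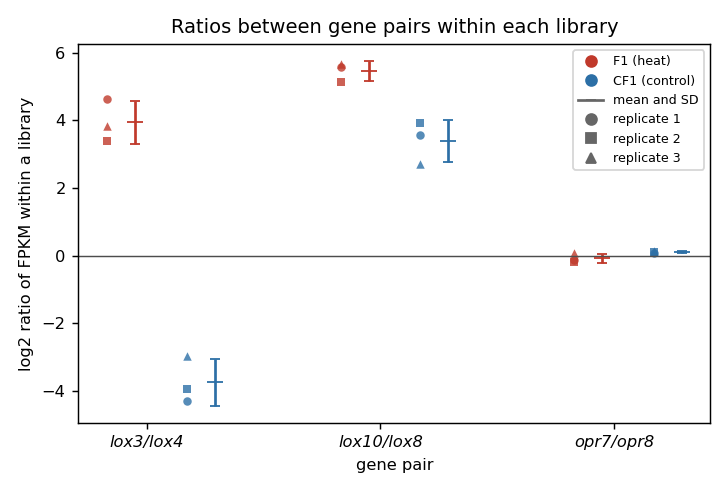
Log2 ratio of FPKM (pseudocount 0.1) within each library for lox3 over lox4, lox10 over lox8 and opr7 over opr8, with F1 left of CF1; markers are libraries, and the crossbars beside them are means with SD. The lox3 to lox4 ratio averages 3.95 in F1 and -3.74 in CF1, while the opr7 to opr8 ratio stays near 0 in both groups.

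Among the plastid lipoxygenases that act at carbon 13, lox8 was down-regulated and lox10, the most abundant member, was not called. The gene lox8 (GRMZM2G104843) is the tasselseed gene ts1, whose enzyme supplies the jasmonate that male flowers of the tassel need. It had 25.67, 28.12 and 31.70 FPKM in F1, against 96.03, 70.24 and 162.95 FPKM in CF1. The F1 libraries lay close together and below all CF1 libraries, which spread over more than 2-fold, with CF1 replicate 3 the highest. The means were 28.5 ± 3.03 FPKM in F1 and 109.7 ± 47.9 FPKM in CF1 (SD, n = 3 each). The fold change was 6.75-fold downward (log2 fold change -2.75, SE 0.29, adjusted p = 1.44e-05 by edgeR's quasi-likelihood test), and -2.32 without CF1 replicate 3.

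The gene lox10 (GRMZM2G015419), whose enzyme supplies the green leaf volatiles, had 1230.18, 995.58 and 1631.40 FPKM in F1, against 1142.76, 1061.58 and 1061.47 FPKM in CF1. In deposited FPKM the groups overlapped, with F1 replicate 2 below and F1 replicates 1 and 3 above all CF1 libraries. On the TMM-scaled FPKM all F1 libraries (928.7, 746.2 and 1254) were below all CF1 libraries (1485, 1379 and 1446). The direction of lox10 therefore turned with the scaling: the log2 fold change was -0.56 with TMM (SE 0.19, adjusted p = 0.0256 by edgeR's quasi-likelihood test) and 0.24 with library totals (adjusted p = 0.242 by the same test), and neither was called. The gene took 0.325% to 0.532% of all counts in F1 libraries and 0.346% to 0.373% in CF1 libraries. By FPKM it ranked between 13 and 27 among the genes tested in F1 and between 67 and 77 in CF1. A rank also depends on the levels of the other genes, so it does not measure a change of lox10 itself.

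Apart from the pseudocount of 0.1 FPKM, the ratio of the 2 plastid genes does not depend on scaling. Within libraries, lox10 exceeded lox8 by 47.7-, 35.3- and 51.3-fold in F1 and by 11.9-, 15.1- and 6.51-fold in CF1. The log2 ratio averaged 5.47 ± 0.287 in F1 and 3.40 ± 0.625 in CF1, a difference of 2.07 or 4.2-fold (exact two-sided permutation p = 0.1, the smallest possible). All F1 libraries were above all CF1 libraries.

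The gene lox9 (GRMZM2G017616), grouped with these lipoxygenases by sequence, was low and tight between replicates. It had 7.84, 7.62 and 7.26 FPKM in F1, against 2.49, 2.99 and 2.69 FPKM in CF1. Its log2 fold change was 0.68 with TMM (SE 0.12, adjusted p = 0.000691 by edgeR's quasi-likelihood test) and missed the 2-fold threshold, while with library totals it was 1.48 and called. The gene lox6 (GRMZM2G040095) encodes an atypical lipoxygenase that acts on hydroperoxides rather than on fatty acids. It was the second most abundant member, with 184.06, 149.35 and 205.73 FPKM in F1, against 222.81, 169.12 and 203.77 FPKM in CF1. These ranges overlapped, and its log2 fold change was -0.94 with TMM (SE 0.16, adjusted p = 0.000483 by edgeR's quasi-likelihood test) and -0.14 with library totals, without a call in either. With TMM it was called once CF1 replicate 2 (-1.05) or F1 replicate 3 (-1.06) was left out.

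**Figure D3:**
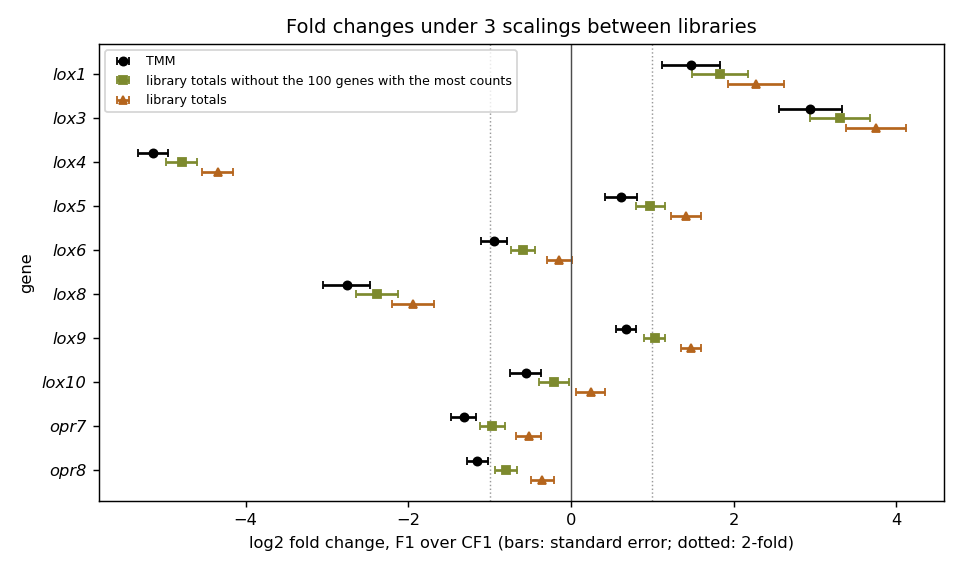
Log2 fold change of F1 over CF1 for the 10 genes with TMM scaling, with library totals that leave out the 100 highest-count genes, and with full library totals; markers are edgeR estimates, whiskers are standard errors and dotted lines mark 2-fold. Full totals lie above TMM for every member, with lox1 and lox3 up and lox4 and lox8 down in all 3, and lox10 at -0.56, -0.20 and 0.24.

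In the summed FPKM of the 8 lipoxygenases, lox10 made up 84.1% ± 1.48 in F1 and 77.0% ± 3.63 in CF1 (SD, n = 3 each), and lox6 11.9% ± 0.955 in F1 and 14% ± 1.10 in CF1. The share of lox8 was 1.92% ± 0.373 in F1 and 7.69% ± 3.14 in CF1, so most of the remaining lipoxygenase transcript in CF1 was lox8. The share of lox3 was 0.699% ± 0.286 in F1 and 0.0557% ± 0.026 in CF1, and that of lox4 was 0.037% ± 0.00642 in F1 and 0.795% ± 0.114 in CF1. Grouped as acting at carbon 9 were lox3, lox4, lox5 and also lox1, whose enzyme can make both kinds of product. These 4 genes together stayed a small fraction, 1.51% ± 0.259 in F1 and 1.13% ± 0.128 in CF1. The 8 lipoxygenases together took 0.395% to 0.627% of counts in F1 and 0.435% to 0.491% in CF1, ranges that overlap. These are shares of library totals, without TMM. On the TMM-scaled FPKM, lox10 and lox6, the largest parts of the sum, were each lower in all F1 libraries than in all CF1 libraries.

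Both OPDA reductase genes were down-regulated with TMM, and neither was called with library totals. The genes opr7 and opr8 encode near-identical peroxisomal enzymes, and maize plants lacking both are short of jasmonate. The gene opr7 (GRMZM2G148281) had 6.09, 5.05 and 7.12 FPKM in F1, against 8.55, 8.94 and 8.74 FPKM in CF1. The gene opr8 (GRMZM2G082087) had 6.59, 5.72 and 6.77 FPKM in F1, against 8.09, 8.30 and 7.95 FPKM in CF1. All F1 libraries were below all CF1 libraries for both, and the CF1 libraries were nearly equal. The log2 fold change of opr7 was -1.32 with TMM (SE 0.15, adjusted p = 2.66e-05 by edgeR's quasi-likelihood test), and -0.52 with library totals, where it was not called. That of opr8 was -1.15 with TMM (SE 0.13, adjusted p = 3.01e-05 by the same edgeR quasi-likelihood test), and -0.35 with library totals, where it was not called either. The opr7 to opr8 ratio within libraries was 0.925, 0.885 and 1.05 in F1 and 1.06, 1.08 and 1.10 in CF1. The log2 ratio differed by -0.18 (exact two-sided permutation p = 0.1, the smallest possible). Reads shared by these similar genes could be lost or misplaced in counting, which was not tested.

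Other genes of the jasmonate pathway and of its gene families were taken from lists made by gene name. Of 35 such genes in the table, 31 were tested, of which 2 were up-regulated, 19 were down-regulated and 10 were not called. Among all genes tested 24.1% were up and 19.9% down. TIFY genes made up 20 of the 31 and 13 of the 19 down-regulated, so these totals mostly describe that family. The median log2 fold change was -1.83 against 0.05 over all genes tested. With library totals 5 were up and 16 down, against 45% of all genes up and 9.21% down, and the median was -1.02 against 0.85. No gene of the table was matched by the names set for the beta-oxidation steps, for jasmonate conjugation, for the receptor or for MYC2.

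At the allene oxide step, 5 of 6 genes were tested, with 1 up, 2 down and 2 not called. The allene oxide synthase gene aos2 (GRMZM2G002178) had 17.13, 13.55 and 14.77 FPKM in F1, against 0.33, 1.32 and 0.19 FPKM in CF1. It was up-regulated (log2 fold change 3.82, SE 0.41, adjusted p = 1.83e-05 by edgeR's quasi-likelihood test), and by 5.01 on the log2 scale without CF1 replicate 2, the highest of the CF1 libraries. Like lox1 and lox3, aos2 passed the low-value filter only through F1. The far more abundant aos1 (GRMZM2G067225) had 143.96, 121.90 and 121.03 FPKM in F1, against 203.50, 197.07 and 186.23 FPKM in CF1. Its log2 fold change of -1.40 was called (SE 0.12, adjusted p = 3.07e-06 by edgeR's quasi-likelihood test), and with library totals it was -0.60 and not called. The log2 fold change of aos3 was -1.87 (called). The cyclase genes aoc1 (0.45) and aoc2 (-0.56) were not called with TMM, and with library totals aoc1 was called at 1.26 and aoc2 turned to 0.24 without a call.

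Among the other lipoxygenases, lox11 (log2 fold change -2.59) and lox12 (-3.04) were down-regulated, both at no more than 4.84 FPKM in any library, and lox7 (0.53) was not called. The low-value filter was passed by lox11 and lox12 only through CF1 and by lox7 only through F1. Among the other OPR genes, which are not known to act in jasmonate synthesis in the way of opr7 and opr8, 3 of 5 were tested. The gene opr6 (GRMZM2G068947) had 1.55, 0.97 and 0.79 FPKM in F1, against 22.80, 24.70 and 18.53 FPKM in CF1, and was down-regulated 34.4-fold (log2 fold change -5.11, SE 0.21, adjusted p = 4.37e-08 by edgeR's quasi-likelihood test). The gene opr2 was down-regulated as well, at -2.99. The most abundant of them, opr5, had a log2 fold change of -0.62 with TMM and 0.18 with library totals and was not called in either.

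The TIFY family, which holds the JAZ repressors besides members that are not JAZ proteins, had 20 of 21 genes tested. Of these 13 were down-regulated, 1 was up-regulated and 6 were not called, against 19.9% of all genes tested down and 24.1% up, and the median log2 fold change was -1.86 against 0.05. Among the 13, TIFY29 passed the low-value filter only through CF1. With library totals 11 were down and 2 up, against 9.21% of all genes down and 45% up, and the median was -1.06 against 0.85. The largest decrease was that of TIFY20 (GRMZM2G173596), which had 8.47, 12.74 and 23.40 FPKM in F1, against 95.42, 55.11 and 199.76 FPKM in CF1. Its log2 fold change was -3.78 (SE 0.51, adjusted p = 8.23e-05 by edgeR's quasi-likelihood test) and -3.11 without CF1 replicate 3. Among the most abundant TIFY genes, TIFY25 (-2.64), TIFY6 (-2.14) and TIFY24 (-1.93) were down-regulated. The call of TIFY4 (-1.09) was lost with library totals (-0.28) and without CF1 replicate 3 (-0.58), F1 replicate 1 (-0.98) or F1 replicate 2 (-0.97). The gene called up was TIFY23 (GRMZM2G080509), with 61.36, 49.14 and 53.24 FPKM in F1, against 10.09, 10.23 and 11.53 FPKM in CF1 (log2 fold change 1.56, SE 0.13, adjusted p = 2.26e-06 by edgeR's quasi-likelihood test). TIFY21 was also higher in F1, with means of 65.43 FPKM in F1 and 18.82 FPKM in CF1. Its log2 fold change of 0.997 (adjusted p = 6.85e-05 by the same test) fell just short of 2-fold, and with library totals it was 1.8 and called.

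**Figure D4:**
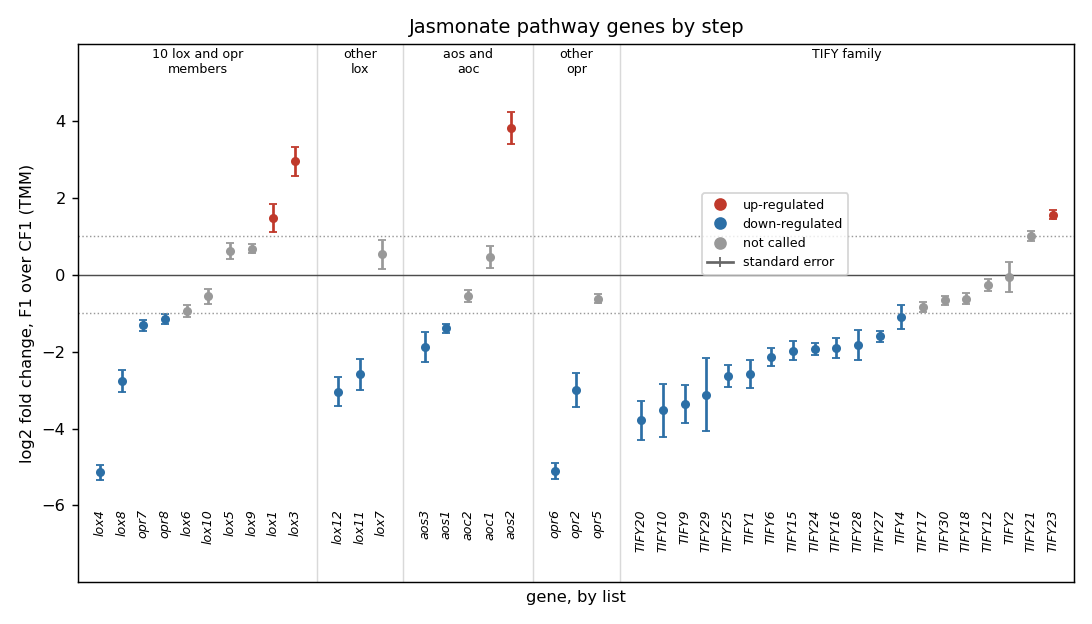
Log2 fold change of F1 over CF1 (TMM, edgeR) for the 10 members and the 31 other pathway genes tested, by list; whiskers are standard errors, dotted lines mark 2-fold and colours mark the calls. Most TIFY genes lie below -1, and each enzyme list holds genes on both sides of 0 except the other OPR genes, where opr5 is below 0 with TMM and above it with library totals.

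The CF1 libraries differed among themselves in these genes. On the TMM-scaled FPKM, CF1 replicate 3 was the highest of the CF1 libraries for 17 of 20 TIFY genes (85%) and for 6 of 10 members, against 39% of all genes tested, and CF1 replicate 2 was the lowest for 17 of 20 TIFY genes and 7 of 10 members, against 37.6% of all genes. The ratio of CF1 replicate 3 to CF1 replicate 2 was 2.43 for lox8, 2.41 for lox3, 2.20 for lox1 and 3.8 for TIFY20. The range from the 5th to the 95th percentile of all genes was 0.429 to 2.14. This ratio rested on few counts for lox3 (45 against 21) and lox1 (48 against 25), and on 6994 against 3247 for lox8. For lox10 it was 1.05, for opr7 1.03 and for opr8 1.01. Without CF1 replicate 3, the members still had 2 up and 4 down, and the TIFY genes had 2 up and 11 down. Within F1, replicate 3 was the highest F1 library for 8 of 10 members and 13 of 20 TIFY genes, against 34.5% of all genes tested. What set these libraries apart was not tested.

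**Figure D5:**
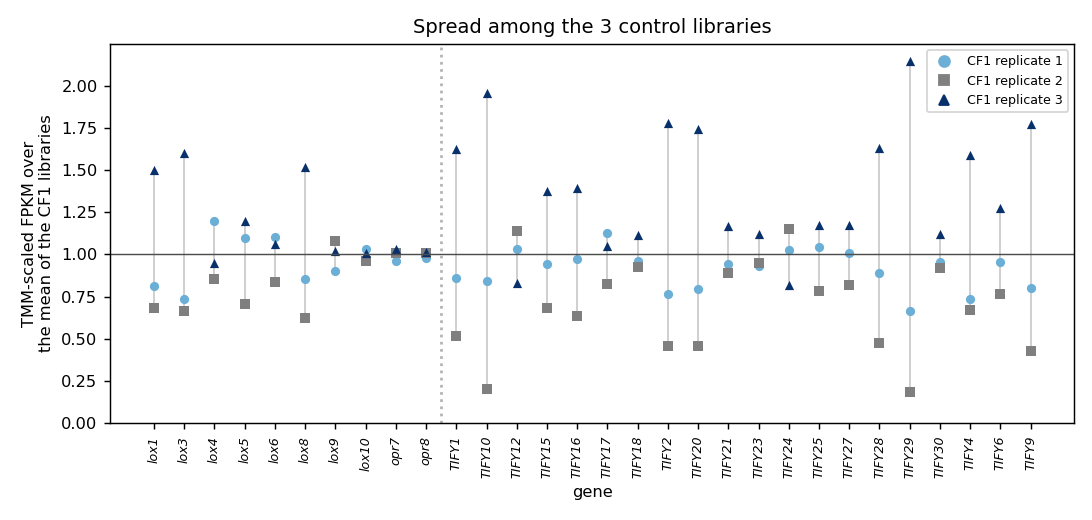
TMM-scaled FPKM of each CF1 library divided by the mean of the 3 CF1 libraries, for the 10 members (left of the dotted line) and the 20 TIFY genes tested; markers are CF1 replicates 1 to 3 and a grey line joins those of a gene. CF1 replicate 3 is the highest for 17 of the 20 TIFY genes and 6 of the 10 members, and the replicates of lox10, opr7 and opr8 lie near 1.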

How the data were processed

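Leaf RNA of the hybrid An'nong 591 was sequenced by the authors from poly(A) libraries, aligned to the B73 genome (RefGen_v3) with HISAT2 (2.0.1) and counted with HTSeq (0.6.1), and the submitters' processing notes also name DESeq (1.10.1). The authors deposited unnormalized read counts per gene and FPKM values, which are counts divided by exonic length and library total. The deposited gene length was used as given. Hybrid reads were aligned to B73, and similar copies may share reads. The 24 per-sample columns whose names match no sample label were not used.

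Counts of the 6 hybrid libraries were tested with edgeR (4.0.16, R 4.3.3) by the quasi-likelihood test with TMM, for genes with mean FPKM of at least 1 in F1 or CF1. Calls needed a 2-fold change or more and an FDR no higher than 0.05. The SE is the absolute log2 fold change divided by the square root of F. Within-library ratios of FPKM used a pseudocount of 0.1. Totals of 12266758 to 14643512 counts set the precision. Counts of 20622 genes were simulated with the library sizes of this comparison. Of 200 genes changed by 2 on the log2 scale (minimum expected count 20), 190 were called, with 10 false calls. Apart from those 200 genes, both groups were drawn from the CF1 means and dispersions. The shift in composition between F1 and CF1 was not simulated, so these figures say nothing about calls that depend on the scaling. Replicates differed beyond sampling noise, with a mean chi-square per gene of 25.78 between CF1 replicates 2 and 3 and of 9.574 to 11.88 for the other pairs within a group.

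Named were all members and, of each pathway list, the up to 4 tested genes with the highest mean FPKM and the called gene with the largest change in each direction. TIFY21 and TIFY29 were named besides, the first for a change close to the threshold and the second for the low-value filter. Members and lists were chosen with earlier results of these data known. Names came from RefSeq (Zm-B73-REFERENCE-NAM-5.0), matched for 18908 IDs, which also gave which genes lie next to each other. None of its coordinates are printed. The alternatives were median-of-ratios factors, library totals, DESeq2 (1.42.0), no filter, a replicate block, limma (3.58.1) on log2(scaled FPKM + 1) or + 0.1, and each library left out. Library totals that leave out the 100 highest-count genes, all alternatives for the pathway genes, and limma with + 0.1 for the counts of calls, were added after seeing the data.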

Additional observations from a re-analysis of the deposited data

How the results depend on the processing

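The calls of lox3, lox4 and lox8 held in all 14 alternatives, that of lox1 in 13, and those of opr7 and opr8 in 12. With library totals, lox10 turned to 0.24, aoc2 to 0.24 and opr5 to 0.18 on the log2 scale, none of them called. Library totals that leave out the 100 highest-count genes, chosen after seeing the data, gave log2 fold changes of -0.20 for lox10, -0.97 for opr7, -0.80 for opr8 and 1.03 for lox9, of which only lox9 was called, and lox10 itself is among the genes left out of those totals. The log2 ratio of lox3 to lox4 differed by 5.61 with a pseudocount of 1, and by 7.35 to 8.08 with 1 library left out. The difference in the ratio of lox10 to lox8 then was 1.72 to 2.33, and that of opr7 to opr8 -0.251 to -0.127. Over the alternatives the number of genes called was 6914 to 11185 (9065 as reported, 8795 to 9147 with 1 library left out), and that of members called 5 to 7. Calls were 54.7% up as reported, 83% with library totals and 69.7% with totals without the top 100 genes. The replicate block called 8948 genes, 6 members and 22 pathway genes. With the block the SE fell for some genes, such as TIFY20 (0.243 against 0.505), and rose for others, such as aos2 (0.44 against 0.412). Over all genes tested, same-numbered libraries had deviations that correlated at 0.0348, -0.0179 and 0.0162, and not every library correlated best with its own number. Such correlations over all genes, from 3 libraries per group, cannot show whether the samples were paired by number. Low counts limit lox1 and lox3 in CF1 and lox4 in F1.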
